A study of Mus musculus with 10 samples.

Results

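The c-Jun N-terminal kinases, the kinases that switch them on and the proteins that assemble them into a unit were measured in the hippocampus of 5 wild-type mice and 5 mice with a conditional knockout of DLK. These are 10 genes: the 3 JNKs Mapk8, Mapk9 and Mapk10, the 2 MAP kinase kinases Map2k4 and Map2k7, and 5 scaffolds, namely Mapk8ip1, Mapk8ip2, Mapk8ip3, Spag9 and Sh3rf1. Their probes were found by the RefSeq accession printed for each probe, which gave 18 probes of the 39429 on the array. Of these, 17 had a Cy5 signal that the scanner software marked as well above background on 5 or more of the 10 arrays, and these were tested. The remaining probe, the third of Sh3rf1, met that mark on 1 array.

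DLK, encoded by Map3k12, is a MAP kinase kinase kinase of neurons. It phosphorylates MKK4 and MKK7, the products of Map2k4 and Map2k7, and these in turn phosphorylate the JNKs. JNK1 and JNK2 (Mapk8 and Mapk9) occur in most tissues, while JNK3 (Mapk10) is largely a kinase of neurons and is known for its part in neuronal stress responses. JNK-interacting proteins hold the 3 tiers together and tie them to kinesin motors, so that the module can be carried along axons. Signalling through the module runs by phosphorylation, which an RNA array does not measure.

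RNA of 1 mouse was hybridised per array. The labels call the genotypes DLK wild type (WT) and DLK conditional knockout (cKO), and both groups, WT included, ate a tamoxifen diet for 3 weeks before the adult hippocampus was dissected. Not given in the labels are the recombinase with its promoter, the exons it removed, the strain, and the mice's sex and exact age. On every array 750 ng of cRNA was hybridised, the mouse's in Cy5 against a Cy3-labelled commercial RNA pool, the Universal mouse reference, and the dyes were not swapped. A log2 ratio below is therefore the log2 of hippocampus over that pool for 1 probe, and it holds the dye effect, which is the same in both genotypes. WT1 to WT5 and cKO1 to cKO5 are the replicate numbers of the labels, and a difference is always cKO minus WT.

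Arrays correlated closely but differed in brightness. The median Cy5 intensity lay between 146 and 202, the share of probes with a Cy5 signal well above background was 69.6% to 76.1%, and pairs of arrays correlated at 0.98 to 0.996 across probes. Slide 1 held 4 cKO arrays, slide 2 held 3 WT arrays and cKO2, and slide 3 held 2 WT arrays, so slide and genotype overlap except within slide 2. Map3k12 itself had log2 ratios of 2.11, 1.76, 1.74, 1.87 and 2.15 in WT1 to WT5 and 0.64, 0.11, 0.64, 0.68 and 0.48 in cKO1 to cKO5. It differed by -1.41 (SE 0.12), with an adjusted p of 0.000975 by limma and no overlap between the groups. On cKO2, the lowest, the reference signal of this probe was 314, against 102.5 to 128 on the other 9 arrays, while its Cy5 signal of 390.5 was the highest of the cKO mice. The value within slide 2 has cKO2 as its only cKO array. It no longer passed under 4 alternatives, given with the other settings in the closing section. Where its probe lies relative to the deleted part is not stated in the labels.

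Start regions of the 3 JNK genes are shown here because the JNKs are compared with each other below. For Mapk8 and Mapk10, which have 2 annotated starts each, the outer one is shown. Each line gives the 250 bases before an annotated start, 5′ to 3′ along the gene, from RefSeq with build GRCm38.p6, at chr14:33447159-33447408 on the minus strand for Mapk8, chr11:49846501-49846750 on the plus strand for Mapk9 and chr5:103211335-103211584 on the minus strand for Mapk10. Capitals mark GGGCGG or its reverse complement CCGCCC, the core letters of a GC box, and TGACGTCA, the letters of a cyclic AMP response element, which reads the same on both strands.
Mapk8: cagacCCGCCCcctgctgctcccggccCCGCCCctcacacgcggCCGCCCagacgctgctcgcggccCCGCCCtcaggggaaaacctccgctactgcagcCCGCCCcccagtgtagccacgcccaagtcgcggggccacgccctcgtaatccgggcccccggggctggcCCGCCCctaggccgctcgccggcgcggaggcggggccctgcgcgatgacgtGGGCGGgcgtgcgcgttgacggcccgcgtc
Mapk9: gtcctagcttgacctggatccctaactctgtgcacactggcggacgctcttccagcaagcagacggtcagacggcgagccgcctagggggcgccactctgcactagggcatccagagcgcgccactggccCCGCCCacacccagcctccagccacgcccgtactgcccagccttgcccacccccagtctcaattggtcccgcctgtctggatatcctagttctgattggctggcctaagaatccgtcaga
Mapk10: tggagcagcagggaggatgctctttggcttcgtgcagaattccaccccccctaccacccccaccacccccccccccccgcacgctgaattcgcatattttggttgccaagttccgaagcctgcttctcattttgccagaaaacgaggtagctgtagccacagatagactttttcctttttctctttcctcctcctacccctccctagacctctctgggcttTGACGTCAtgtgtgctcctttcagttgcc
The Mapk8 window held 7 GC box matches and 36 CG pairs, with 79.2% G or C. The Mapk9 window held 1 such match and 14 CG pairs, with 63.6% G or C. In the Mapk10 window no GC box letters were found, there were 7 CG pairs, and TGACGTCA began 29 bases before the start. The windows of the inner starts were close in composition, with 33.2% G or C and 1 CG pair for Mapk8 and 31.2% and 2 for Mapk10, and neither held GC box letters. Over all 32851 windows of this length, 32.7% held the GC box letters and 1.55% held TGACGTCA, and the medians were 6 CG pairs and 52.4% G or C. Of the 10 members, 8 had a window and together they had 13, of which 5 held the GC box letters, 1 held TGACGTCA and 0 held TGAGTCA or its reverse TGACTCA, the AP-1 letters found in 4.46% of all windows. These are matches of letters only.

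None of the 10 genes differed between the genotypes past the threshold of an adjusted p of 0.05 in the limma fit over all 23574 features. In that fit 0.00424% of features passed, which is Map3k12 alone. At an unadjusted p under 0.05, 1 of the 10 members was higher in cKO and 0 were lower, against 2.83% of all features higher and 3.86% in either direction. In 0 of the 10 did the groups fail to overlap, while 0.525% of all features lay higher in every cKO mouse than in every WT mouse, 0.243% lay lower, and 0.768% did one or the other. The differences ranged from -0.028 for Spag9 to 0.16 for Mapk10 with a median of 0.063, and 9 of the 10 were above 0, although this count was 3 with each array centred on its median and 5 with scaling between arrays. Over all features 54.8% were above 0 as reported, 25.8% with median centring and 53.6% with scaling. The features as reported had a median of 0.0083 and a middle range, from the lower to the upper quartile, of -0.036 to 0.057. As reported, the 95% interval of limma stayed within 1.5-fold either way for all 10 genes. That fit carries an offset of 50, which pulls dim probes towards a ratio of 1, so it sets no bound under other settings. The dim Map2k7 differed by 0.48 (SE 0.14) with the scanner software's processed signals and by 0.21 (SE 0.14) with plain background subtraction. Because the tissue is bulk hippocampus, fewer cells of a type and less RNA per cell cannot be told apart in any of these values. Nothing in the labels says how the mice are related, so p-values measure the spread between these mice.

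**Figure D1:**
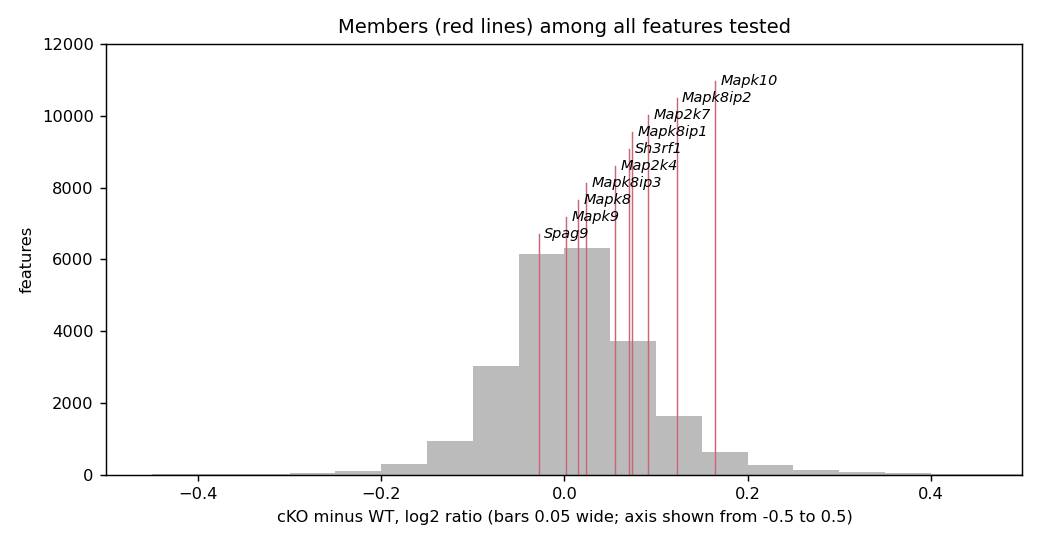
Histogram of the difference between cKO and WT in log2 units for all features tested (grey bars, 0.05 wide, horizontal axis from -0.5 to 0.5, vertical axis number of features), with each member gene as a red line. Members lie between -0.028 and 0.16, with 9 of 10 to the right of 0 as plotted, 3 of 10 with median centring (25.8% of all features) and 5 of 10 with scaling between arrays (53.6%).

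Mapk10 had the largest difference of the 10 genes as reported, but not under every setting. Map2k7 exceeded it with plain background subtraction, processed signals, Cy5 alone, median centring and scaling. Mapk8ip3, Map2k4 and Mapk9 did within slide 2, and so with slide as a fixed block. Map2k4 also did with array weights (0.169 against 0.163), Mapk8ip2 with all spots in the background fit (0.269 against 0.266) and Mapk8ip1 with Cy5 alone (0.060 against 0.053). Mapk10 encodes JNK3, the neuronal JNK. The WT log2 ratios of its brighter probe were 6.23, 6.09, 6.27, 6.11 and 6.29 in WT1 to WT5. The cKO values were 6.35, 6.33, 6.28, 6.36 and 6.49 in cKO1 to cKO5. Of the cKO mice, 4 lay above the highest WT mouse and cKO3 lay between WT3 and WT5, so the groups overlapped by 1 mouse. WT averaged 6.20 ± 0.094 and cKO 6.36 ± 0.080 (SD, n = 5 each). The difference was 0.16 (SE 0.062, 95% interval 0.031 to 0.30), or 112% of WT with bounds of 102% and 123%. The unadjusted p was 0.0201 and the adjusted p 0.99995 by limma, and the exact permutation test, two-sided over 252 regroupings, gave 0.0159, where 0.00794 is the smallest it can give.

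The second Mapk10 probe gave 3.47, 3.58, 3.35, 3.56 and 3.61 in WT1 to WT5 and 3.90, 3.67, 3.43, 3.76 and 3.40 in cKO1 to cKO5. Here 3 cKO mice lay above all WT mice, and cKO5, the highest mouse on the brighter probe, was the second lowest of all 10. The difference on this probe was 0.12 (SE 0.096, unadjusted p 0.246 by limma, exact permutation p 0.310). The raw Cy5 signal of the brighter probe ran from 45999 to 75986 in WT and from 37770 to 68215 in cKO. It was lowest in cKO5 and highest in WT5, which are also the arrays with the lowest and the highest median Cy5. With Cy5 alone, without the reference, the Mapk10 difference was 0.053, with median centring 0.071 and with scaling between arrays 0.039. Within slide 2, where cKO2 is the only cKO mouse, it was 0.19. The size thus depended on the channel, the scaling and the arrays used, while the sign did not.

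Mapk8, which encodes JNK1, did not differ by more than the spread between mice on any of its 3 probes. The brightest gave 1.02, 1.04, 1.28, 1.04 and 1.03 in WT1 to WT5 and 1.41, 1.16, 1.26, 0.86 and 0.79 in cKO1 to cKO5. The 4 WT mice other than WT3 lay between 1.02 and 1.04, while the cKO mice spanned 0.62 and held both the highest and the lowest value of the 10. The difference was 0.015 (SE 0.11, 95% interval -0.23 to 0.26, exact permutation p 0.944). The next probe gave 1.56, 1.40, 1.52, 1.62 and 2.0 in WT and 1.85, 1.87, 1.66, 1.60 and 1.51 in cKO, a difference of 0.077 (SE 0.11). Its highest mouse was WT5, which was unremarkable on the brightest probe.

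The dimmest Mapk8 probe fell into 2 bands of mice that cut across genotype. WT3, WT5, cKO1 and cKO4 had log2 ratios of 0.65, 0.58, 0.74 and 0.58, and the other 6 mice lay between 0.21 and 0.32. Its Cy3 signal, which comes from the common reference, was 84.5, 91, 93, 90 and 85 on WT1, WT2, WT4, cKO2 and cKO3, and 57, 56, 51, 47 and 59 on WT3, WT5, cKO1, cKO4 and cKO5. All 4 arrays of slide 2 were among those with the brighter reference signal. The difference between genotypes on this probe was 0.069 (SE 0.11), and the part of the reference signal in it was not tested.

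Mapk9 encodes JNK2. Its brighter probe gave 2.35, 2.20, 2.19, 2.15 and 2.43 in WT1 to WT5. In cKO1 to cKO5 it gave 2.21, 2.43, 2.23, 2.32 and 2.14. The highest WT and the highest cKO mouse coincided at 2.43, and the difference of 0.0015 (SE 0.072, 95% interval -0.16 to 0.16, exact permutation p 0.992) was the smallest of the 10 genes as reported. The second Mapk9 probe lay between 0.48 and 0.65 in WT and between 0.40 and 0.83 in cKO, and its difference was 0.071 (SE 0.076).

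**Figure D2:**
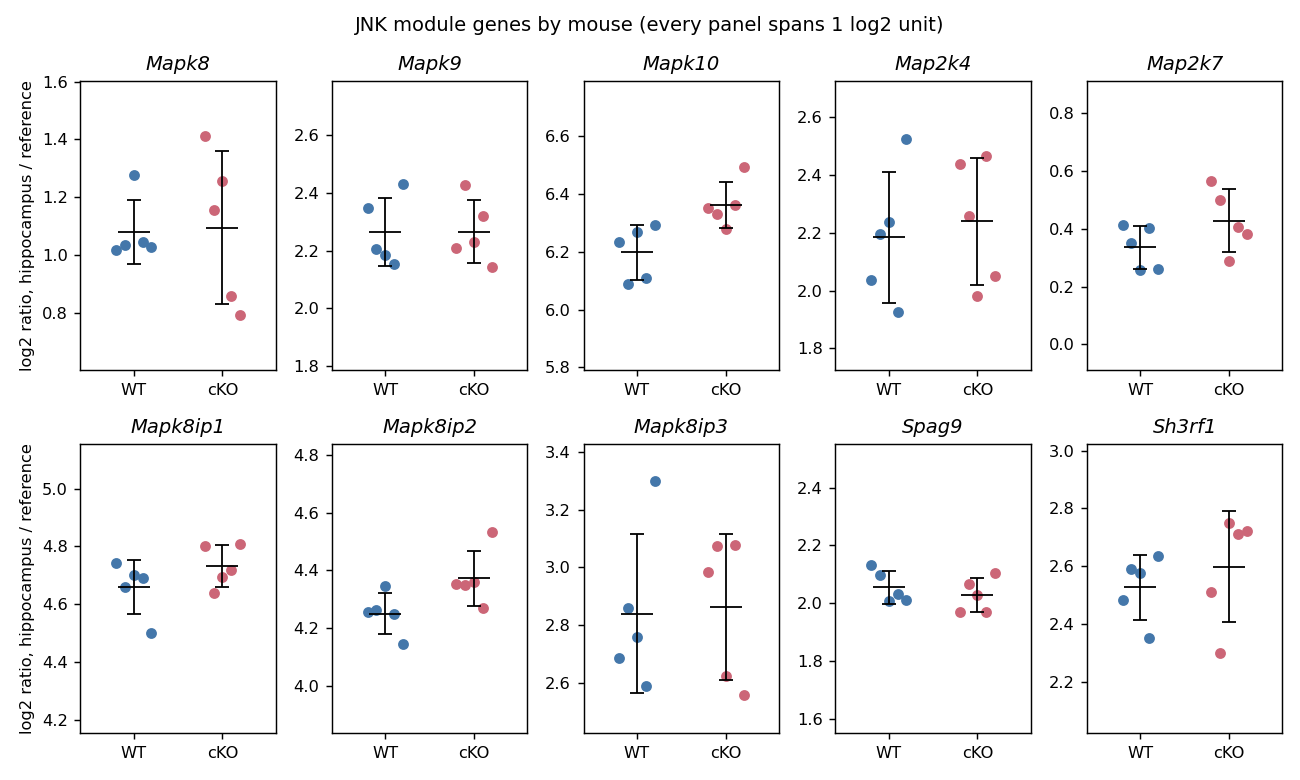
Log2 ratio of hippocampus over reference for each mouse (points) in WT (blue) and cKO (red), 1 panel per gene for the probe that stands for it, with the mean and SD of 5 mice in black; every panel spans 1 log2 unit. In all 10 panels the groups overlap, and Map2k4, Mapk8 and Mapk8ip3 spread over 0.60, 0.62 and 0.74 while Spag9 spreads over 0.16.

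The JNKs differed in how far hippocampus stood above the reference pool, which is a description, since the dye effect is included and a background offset of 50 pulls dim spots towards a ratio of 1. On its brighter probe Mapk10 was 73.4 times the pool in WT, a ratio higher than that of 99.7% of features, and on the second probe it was 11.4 times. Mapk9 was 4.80 times the pool on its brighter probe and 1.47 times on the other. Mapk8 was 2.11, 3.07 and 1.30 times the pool on its 3 probes. Probes of 1 gene thus gave unequal ratios, and Mapk10 lay above both other JNKs on either of its probes. Over the 10 mice, after each genotype's mean was taken off, the genes most like Mapk10 in log2 ratio among 16172 were Rbfox1 (r = 0.955), Csf2rb (0.937) and Wnt10b (0.932). For Mapk9 they were Cabp2 (0.962), Csrnp2 (0.957) and Olfr213 (0.955), and for Mapk8 Olfr1066 (0.968), Prps1l3 (0.960) and Ccdc160 (0.927). These are the highest of many correlations over 10 arrays that share a reference, and they are given as a description.

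Neither kinase 1 tier up passed the threshold. Map2k4 encodes MKK4, which also activates p38 kinases, and its brighter probe gave 2.04, 2.19, 2.24, 1.93 and 2.52 in WT1 to WT5. In cKO1 to cKO5 the values were 2.44, 2.26, 1.98, 2.47 and 2.05. Both genotypes covered nearly the same range, with WT5 highest and WT4 lowest of all 10. The difference was 0.055 (SE 0.12, 95% interval -0.21 to 0.32, exact permutation p 0.683), and within slide 2 it was 0.21 (SE 0.13). The second probe gave 1.65, 1.93, 1.74, 1.92 and 2.20 in WT and 2.01, 1.96, 1.76, 2.10 and 1.54 in cKO, with a difference of -0.0090 (SE 0.12).

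Map2k7 encodes MKK7, which acts on JNKs alone among the MAP kinases. Its only probe was dim, with Cy5 signals of 84 to 111.5 against Cy3 signals of 54.5 to 65, and it was well above background in Cy5 on all 10 arrays. The log2 ratios were 0.41, 0.35, 0.26, 0.40 and 0.26 in WT1 to WT5 and 0.57, 0.50, 0.29, 0.41 and 0.38 in cKO1 to cKO5. cKO1 and cKO2 lay above every WT mouse, and the other 3 cKO mice lay within the WT range. The difference was 0.092 (SE 0.064, 95% interval -0.047 to 0.23, exact permutation p 0.143). With the scanner software's processed signals, which carry no offset, it was 0.48 (SE 0.14). There the unadjusted p was 0.00704 and the adjusted p 0.99972 by limma. Plain background subtraction, also without an offset, gave 0.21 (SE 0.14, unadjusted p 0.155 by limma). An offset of 16 gave 0.15 (SE 0.085). The value of 0.48 was the highest of 26 alternatives, and the lowest was 0.057.

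Among the scaffolds, Mapk8ip2 had the largest difference as reported, but not under every setting. Mapk8ip3 was above it within slide 2, and Mapk8ip1 was with Cy5 alone (0.060 against 0.042). Mapk8ip2 encodes JIP2, which like JIP1 is known as a scaffold of neurons. In WT1 to WT5 its log2 ratio was 4.26, 4.26, 4.34, 4.25 and 4.14. In cKO1 to cKO5 it was 4.35, 4.35, 4.36, 4.27 and 4.53. As for Mapk10, 4 cKO mice lay above all WT mice and cKO5 was the highest, while cKO4 lay below WT3. The means were 4.25 ± 0.071 and 4.37 ± 0.096 (SD, n = 5 each), and the difference was 0.12 (SE 0.061, 95% interval -0.0091 to 0.25). The unadjusted p was 0.0654 and the adjusted p 0.99995 by limma, and the exact permutation test gave 0.0159. The difference was 0.042 with Cy5 alone, 0.031 with median centring, 0.036 with scaling between arrays and 0.096 (SE 0.12) with slide as a block.

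Markers of neurons, choroid plexus and oligodendrocytes lay higher in cKO beside these differences of Mapk10 and Mapk8ip2. All 10 general neuron markers (among them Rbfox3, Syn1 and Camk2a) were above 0, with a median difference of 0.13, and their mean log2 ratio ran from 4.72 to 4.86 in WT and from 4.82 to 5.14 in cKO, highest in cKO5. That median was 0.044 with median centring and 0.030 with scaling between arrays, where 8 of 10 were above 0. Markers of hippocampal principal cells had 5 of 9 above 0 with a median of 0.0033, and their mean ran from 2.68 to 3.04 in WT and from 2.65 to 2.96 in cKO. All 12 markers of choroid plexus and ependyma, tissue of the ventricles next to the hippocampus, were above 0 with a median of 0.86, and their mean ran from 0.533 to 1.42 in WT and from 1.37 to 2.57 in cKO, again highest in cKO5. For oligodendrocytes 10 of 12 markers were above 0 with a median of 0.31, and the mean ran from 2.63 to 3.01 in WT and from 2.98 to 3.26 in cKO. Medians for astrocytes, microglia, endothelium and meninges were 0.086, 0.068, 0.066 and 0.069. Within slide 2 the astrocyte and microglia markers lay the other way, with 0 of 10 and 1 of 10 above 0 and medians of -0.20 and -0.11, and with median centring their medians were -0.010 and -0.013. The part of these markers in the differences of Mapk10 and Mapk8ip2 was not tested. No marker of any list passed the adjusted threshold. The mean log2 ratios of neuron and principal cell markers were above 0, that is above the reference pool, in every mouse of both groups.

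Mapk8ip1 encodes JIP1, the scaffold that links the module to kinesin light chain. Its log2 ratio lay between 4.50 and 4.74 in WT and between 4.64 and 4.81 in cKO. WT5 was the lowest of all 10 mice, and cKO1 and cKO5 were the highest. The difference was 0.073 (SE 0.060, 95% interval -0.057 to 0.20, exact permutation p 0.198), and within slide 2 it was -0.058. Hippocampal Mapk8ip1 was 25.3 times the pool in WT and Mapk8ip2 19.0 times, ratios above those of 98.2% and 97.5% of features.

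Mapk8ip3 encodes JIP3, the scaffold that joins DLK and JNK signalling to axonal transport, and among the 10 genes it varied most between mice of a genotype. The brighter of its probes gave 2.69, 2.86, 2.76, 2.59 and 3.30 in WT1 to WT5. In cKO1 to cKO5 the values were 2.98, 3.07, 2.63, 3.08 and 2.56. WT5 stood apart from the next mouse, cKO4, and cKO5 was the lowest. The difference was 0.024 (SE 0.14, 95% interval -0.28 to 0.33, exact permutation p 0.889). Within slide 2, where cKO2 is the only cKO mouse, it was 0.36 (SE 0.13, unadjusted p 0.0295, adjusted p 0.588 by limma). The second probe gave a difference of -0.0053 (SE 0.13), with WT between 1.49 and 1.91 and cKO between 1.27 and 1.96.

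Spag9 encodes JIP4, a close relative of JIP3, and it was the steadiest gene of the module. It lay between 2.01 and 2.13 in WT and between 1.97 and 2.10 in cKO. The difference was -0.028 (SE 0.052, 95% interval -0.14 to 0.085, exact permutation p 0.452). Sh3rf1 encodes POSH, a ubiquitin ligase that brings Rac and mixed-lineage kinases to the module. It lay between 2.35 and 2.64 in WT and between 2.30 and 2.75 in cKO, with cKO2 lowest and the other 4 cKO mice at 2.51 or above. The difference was 0.071 (SE 0.091, exact permutation p 0.492) and that of its second kept probe 0.084 (SE 0.091). Within slide 2, whose only cKO mouse is cKO2, the Sh3rf1 difference was -0.18.

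**Figure D3:**
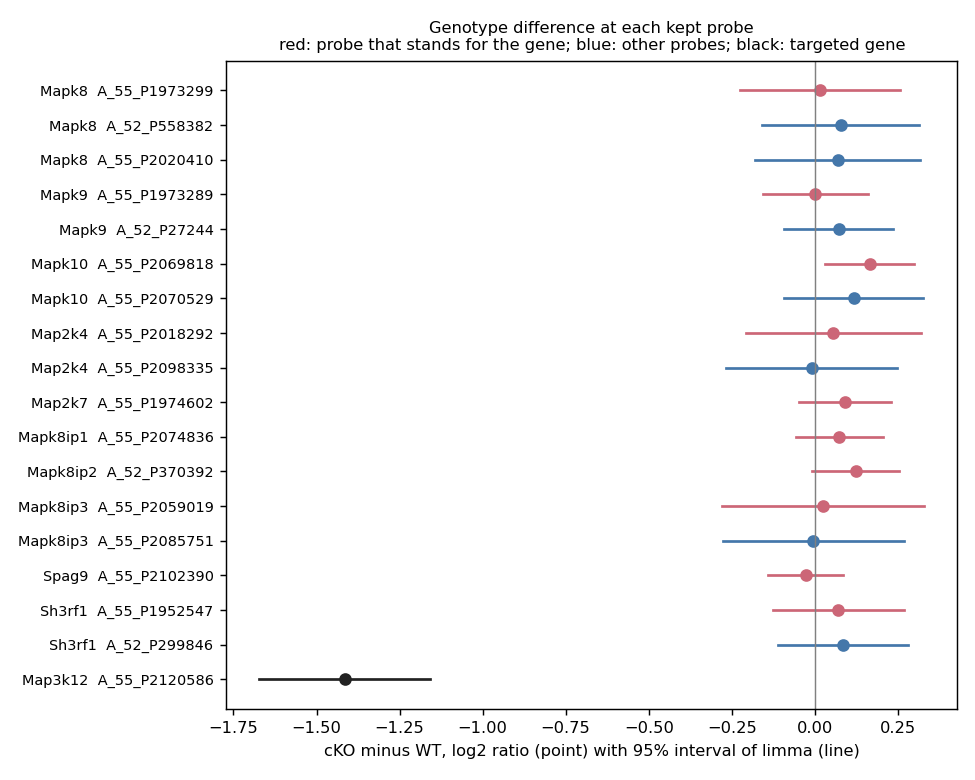
Difference between cKO and WT in log2 units (points) with the 95% interval of limma (lines) for the 17 kept member probes, red where the probe stands for its gene and blue for others, and for the Map3k12 probe in black. Of the member probes 14 lie above 0 and 3 below, and of their intervals only that of the brighter Mapk10 probe leaves out 0, while Map3k12 lies at -1.41.

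The 7 kept probes that do not stand for their gene differed by -0.0090 to 0.12. Of the 17 kept probes, 14 were above 0, with a median of 0.071, against 54.6% of all 28682 kept probes. In the fit over all probes 0.0105% passed the adjusted threshold, and 0 of the members' probes did. In that fit no interval of a member probe reached beyond 0.33 in either direction. The third Sh3rf1 probe had Cy5 signals of 43 to 60 and was left out of the fits.

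The 10 genes varied to unequal degrees among mice of 1 genotype. The pooled SD within genotypes was 0.264 for Mapk8ip3, larger than that of 95.2% of features. It was 0.223 for Map2k4, larger than that of 90.5%, and 0.202 for Mapk8, larger than that of 86.4%. Spag9, at 0.058, varied more than only 5.41% of features, and the median over all features was 0.120. The remaining genes were Sh3rf1 at 0.158, Mapk9 at 0.114, Map2k7 at 0.0925, Mapk10 at 0.0874, Mapk8ip2 at 0.0843 and Mapk8ip1 at 0.0834.

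Map2k4 and Mapk8ip3 varied together over the 10 mice. Their log2 ratios correlated with r = 0.916 (permutation p 0.00036, adjusted p 0.0162 over the 45 pairs of members) and with Spearman's rho = 0.903 (permutation p 0.00087, adjusted p 0.0391). Both were high in WT5, cKO4, cKO1 and cKO2 and lowest in WT1, WT4, cKO3 and cKO5. Without WT5 and WT4, the mice farthest from the median of Map2k4, r was 0.870, and after each genotype's mean was taken off it was 0.919. No slide held enough arrays for a value of its own. With slide and genotype means both taken off, r was 0.946. Of the 45 pairs 25 had r above 0, and this was the only one with an adjusted p under 0.05. The next, Mapk9 with Mapk8ip3, had r = 0.746 (permutation p 0.0153, adjusted p 0.344), and without WT5 and cKO2 it was 0.443.

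The second probes of both genes moved together too, a comparison chosen after these values had been seen. They read the same RNA on the same arrays, so their p-values give no separate support. Between the dimmer Map2k4 and the dimmer Mapk8ip3 probe, r was 0.930 (permutation p 0.00011, adjusted p 0.00044 over 4 probe pairs), rho was 0.939, and r was 0.853 without the 2 farthest mice. The pairs of a brighter with a dimmer probe gave 0.808 and 0.859. Under 8 other ways of processing the arrays r lay between 0.849 and 0.952, and in 3 of them p multiplied by the 45 pairs was above 0.05. The median Cy5 was highest on WT5 at 202, followed by cKO4 at 191 and WT4 at 187, and lowest on cKO5 at 146. WT4 was the lowest mouse on the brighter Map2k4 probe, at 1.93. On the dimmer Map2k4 probe WT4 lay at 1.92, and cKO5 was lowest at 1.54. The brighter and the dimmer Mapk8ip3 probe were also lowest in cKO5, at 2.56 and 1.27. WT5 was highest on both Map2k4 probes and on the brighter Mapk8ip3 probe, and cKO4 on the dimmer Mapk8ip3 probe. The mean of the principal cell markers was also highest in WT5 at 3.04, then 2.96 in cKO4 and 2.94 in cKO1, and lowest in cKO3 at 2.65. The part of array brightness and of principal cell markers in this correlation was not tested.

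**Figure D4:**
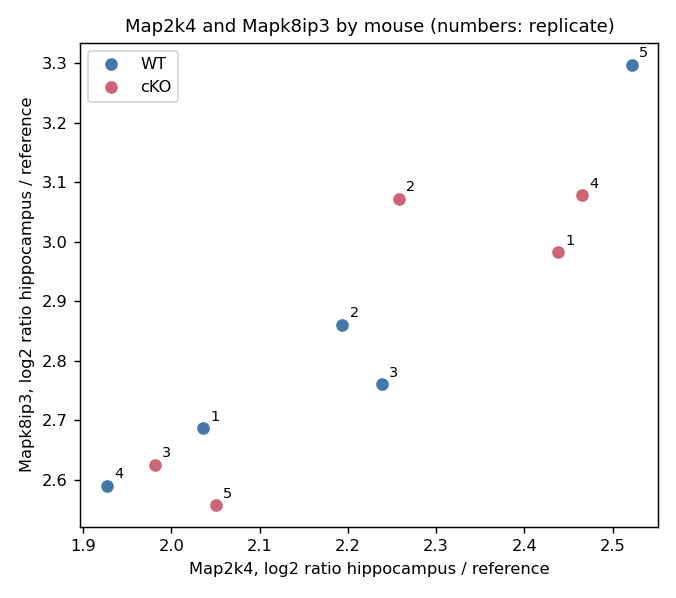
Log2 ratio of Mapk8ip3 (vertical) against Map2k4 (horizontal), both hippocampus over reference, for each WT (blue) and cKO (red) mouse with its replicate number. WT5 lies at the upper right at 2.52 and 3.30, and mice of both genotypes lie along the same rising line.

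The start regions of these 2 genes are shown because the genes moved together. The windows, built as for the JNKs, lie at chr11:65788360-65788609 on the minus strand for Map2k4, the outer of its 2 annotated starts, and at chr17:24936978-24937227 on the minus strand for Mapk8ip3.
Map2k4: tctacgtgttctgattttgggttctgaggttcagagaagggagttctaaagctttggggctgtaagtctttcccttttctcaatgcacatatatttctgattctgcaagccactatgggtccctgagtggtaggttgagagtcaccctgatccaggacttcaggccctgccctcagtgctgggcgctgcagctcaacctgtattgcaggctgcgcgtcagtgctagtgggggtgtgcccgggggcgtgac
Mapk8ip3: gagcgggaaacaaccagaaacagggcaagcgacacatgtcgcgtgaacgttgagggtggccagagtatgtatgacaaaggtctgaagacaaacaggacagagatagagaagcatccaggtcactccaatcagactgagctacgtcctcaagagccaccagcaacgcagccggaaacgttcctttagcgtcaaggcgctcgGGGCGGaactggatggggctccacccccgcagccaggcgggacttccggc
The Map2k4 window held 6 CG pairs and no match to the GC box, response element or AP-1 letters. The Mapk8ip3 window held 16 CG pairs, 1 GC box match in capitals and 1 match to CCAAT or its reverse ATTGG, letters that 33.8% of all windows hold. The outer Map2k4 window had none of the latter, while the window of the other annotated Map2k4 start, at chr11:65745857-65746106, held 1. TATAAA, the fifth motif searched, was in none of these 3 windows.

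Genes around the module were described in 7 lists, and no gene of any list passed the adjusted threshold. Upstream of it, 20 of 23 listed MAP3Ks and MAP4Ks other than Map3k12 were measured. Of these 10 were above 0, with a median of 0.000071. Map3k9, a mixed-lineage kinase, differed by 0.19 (SE 0.087) and Map4k2 by 0.19 (SE 0.088), while Map3k2 differed by -0.11 (SE 0.071) and Map4k1 by -0.066 (SE 0.075). Map3k13, which encodes LZK, the closest relative of DLK, differed by -0.047 (SE 0.065) and was named outside the rule for its kinship. In the parallel MAP kinase cascades 8 of 15 genes were above 0, with a median of 0.0079, and the highest were Mapk13, a p38 kinase, and Nlk at 0.15 each.

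Downstream, the nuclear targets had 4 of 16 genes above 0 with a median of -0.039, but within slide 2 there were 12 of 16 above 0 with a median of 0.083. Jun, whose product is the substrate that gave the kinases their name, had a mean log2 ratio of -0.059 ± 0.38 in WT and -0.48 ± 0.29 in cKO (SD, n = 5 each). Its difference of -0.42 (SE 0.18) had an unadjusted p of 0.0351 and an adjusted p of 0.99995 by limma, and the groups overlapped. Fos, which pairs with Jun in AP-1, differed by -0.24 (SE 0.23), while Jdp2 differed by 0.17 and Fosl2 by 0.15.

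Cytoskeletal substrates of JNK had a median of 0.088 with 12 of 14 genes above 0, a count that was 6 with median centring and 7 with scaling between arrays, where the median was 0.00082. Nefm and Nefh, neurofilament subunits of large axons, differed by 0.24 (SE 0.079) and 0.22 (SE 0.054). In Nefh the groups did not overlap. Marcksl1 and Pxn were the lowest at -0.042 and -0.018. Partners of the scaffolds had 13 of 19 genes above 0 with a median of 0.022, or 4 of 19 with median centring. Their highest were Arf6, a small GTPase known to bind JIP3 and JIP4, at 0.20 (SE 0.083) and Klc2, a kinesin light chain, at 0.15 (SE 0.077). Their lowest were Sh3rf3 at -0.072 and Kif5b at -0.036.

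Apoptosis genes under JNK control had 4 of 10 above 0 with a median of -0.0051, from Bmf at 0.19 and Bcl2l1 at 0.056 to Bbc3 at -0.15 and Bcl2 at -0.059. The dual specificity phosphatases, some of which switch MAP kinases off, had 9 of 16 above 0 with a median of 0.020. Dusp4 differed by 0.19 and Dusp15 by 0.14, and Dusp1, an immediate early gene, by -0.30 (SE 0.16), with Dusp18 at -0.11.

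**Figure D5:**
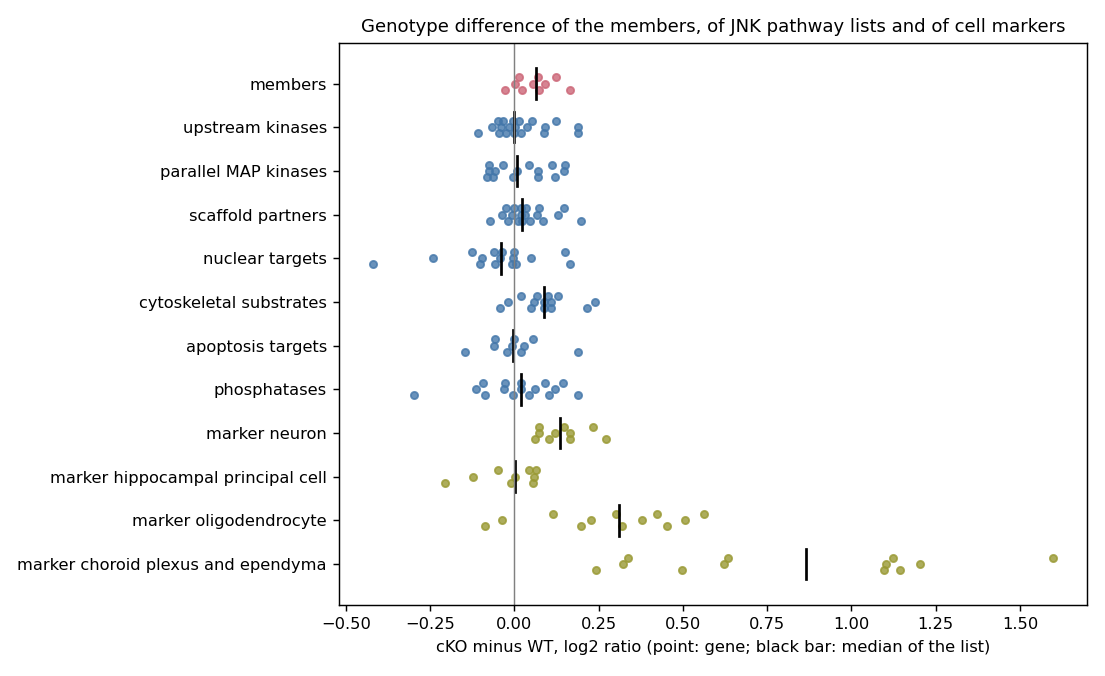
Difference between cKO and WT in log2 units for each measured gene (points) of the members (red), of 7 JNK pathway lists (blue) and of 4 marker lists (olive), with the median of each list as a black bar. Members lie from -0.028 to 0.16 and the nuclear targets reach -0.42 at Jun, while choroid plexus and ependyma markers have a median of 0.86; the member median of 0.063 is -0.027 with median centring, where that of all features is -0.057, and 0.0010 with scaling between arrays.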

How the data were processed

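Agilent arrays with 2 colours, of 5 WT and 5 cKO mice, were analysed, grouped by the labels' genotypes. Per the file headers, spot intensity values were read by the authors with Agilent Feature Extraction 11.0.1.1 on a design of build mm9, as median pixel intensity of spot and local background, not normalised. Per the file headers, that software also gave processed intensity, with background taken off and dyes normalised, and the log10 of the Cy5 over Cy3 ratio of these. The authors' deposited table holds log2 ratios of Cy5 over Cy3, normalised within arrays. The submitters' processing notes name limma but no settings. Each column correlated with the ratios computed here at 0.99997 or more, with a median absolute difference of 0.000597 to 0.00411. Column medians were 0.0120 to 0.0204. From these values scale, direction and absence of centring were settled.

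From the intensities, spots marked non-uniform were removed, background was corrected by normexp (offset 50), ratios were normalised within arrays by loess (control spots at weight 0), and population outliers were dropped before spots of a probe were averaged, with limma 3.58.1 in R 4.3.3. Member probes had no missing values and no saturated Cy5 spot. Median signals were used because the files used here hold medians. The 28682 probes with Cy5 well above background on 5 or more arrays were kept, and each gene was represented by its brightest kept probe (23574 features). The offset understates changes of dim genes. Genotypes were compared with lmFit and eBayes, two-sided, with Benjamini-Hochberg adjustment over all features, and exact permutation tests were run on single genes. Correlations used 100000 permutations. The number of arrays limits precision. Probes were named through RefSeq accessions, and 67.4% of probes were named.

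Named genes were all members with all their probes, Map3k12, the 2 highest and 2 lowest genes of each pathway list and any past the threshold, and the 3 genes most like each JNK; the lowest of the parallel MAP kinases are not reported here. The members and lists were chosen with earlier results of these data known. No pairing by replicate number was seen in the log2 ratios, and the mice were not treated as pairs in the main fit. Alternatives changed background correction, signal, normalisation, filter, probe rule, slide, array weights and the mice included.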

Additional observations from a re-analysis of the deposited data

Results flagged for a closer look

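Of 36 groups of 5 mice tested, 1 for each member probe and genotype, 1 had a mouse far from the other 4. On the brightest Mapk8 probe WT3 had a log2 ratio of 1.28, and the next WT mouse had 1.04. That gap was 0.894 of the whole WT range, where 0.71 is Dixon's 95% critical value for 5 samples. Chance flags about 1 in 20 groups. On the other Mapk8 probes WT3 was at 1.52, within the WT range, and at 0.65, the highest WT value.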

How the results depend on the processing

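Over 26 alternatives no member passed the adjusted threshold, and Mapk10 (0.039 to 0.27), Mapk8ip2 (0.031 to 0.27) and Map2k7 (0.057 to 0.48) stayed above 0 in all of them. For Mapk10 the unadjusted p was under 0.05 in 7 of the 10 fits without 1 mouse and in 9 of the other 16, and it was 0.741 with Cy5 alone, 0.691 with scaling and 0.359 with median centring by limma. The count of genes past the threshold, 1 as reported (911 at an unadjusted p under 0.05 by limma), was 0 with plain subtraction (897 unadjusted), all spots in the background fit (860), Cy5 alone (582) and within slide 2 (1984), and 2 when a gene's probes were averaged. It ran from 1 to 2 when each mouse was left out, with 2 without cKO4. The count of probes, 3 as reported, fell to 1 when all spots entered the background fit, 1 with Cy5 alone and 0 within slide 2 (2389 unadjusted by limma), and 2 to 4 without 1 mouse. Map3k12 lost its call at -1.79 with plain subtraction (adjusted p 0.0582 by limma), -1.26 with all spots (0.971), -1.18 with Cy5 alone (0.103) and -1.81 within slide 2 (0.112). It kept it without any 1 mouse, at -1.46 to -1.31.

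The median of the 10 members, 0.063 as reported, was 0.13 with all spots, -0.027 with median centring, 0.0010 with scaling between arrays and 0.12 with slide as a fixed block and within slide 2, which are the same contrast. It was 0.016 to 0.087 without 1 mouse. Signs turned for genes whose interval spans 0. With plain subtraction, Mapk8 was -0.0050 and Mapk9 -0.0046. With median centring, Mapk8 was -0.025, Mapk9 -0.091, Map2k4 -0.033, Mapk8ip1 -0.029, Mapk8ip3 -0.080 and Sh3rf1 -0.018. With scaling between arrays, Mapk8 was -0.0086, Mapk9 -0.044, Mapk8ip1 -0.024 and Mapk8ip3 -0.033. Mapk9 was also -0.014 with processed signals, -0.043 with Cy5 alone and -0.024 with slide as a random block, where Mapk8ip3 was -0.0036. Spag9 was 0.0037 with all spots. Mapk8ip1 was -0.058 and Sh3rf1 -0.18 with slide as a fixed block and within slide 2. Without 1 mouse, Mapk8 ran from -0.064 to 0.091, Mapk9 from -0.039 to 0.043, Map2k4 from -0.0088 to 0.14 and Mapk8ip3 from -0.038 to 0.14. The causes were not tested. The correlation of Map2k4 and Mapk8ip3 missed the threshold, multiplied over 45 pairs, at r = 0.851 with all spots, 0.882 with Cy5 alone and 0.849 with scaling, settings added after the data were seen.

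No pairing by replicate number was seen in the log2 ratios. Same-numbered deviations correlated at -0.56 to 0.16, and 0 of 10 arrays correlated best with their own number. Such correlations cannot exclude a pairing in the design, which the labels do not give. With the replicate block 1 gene and 2 probes passed, and the members' median was 0.063. Dim probes such as that of Map2k7 carry the least signal over background.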
